A study of Arabidopsis thaliana with 60 samples.

Results

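The data described here compare dexamethasone (DEX) with its solvent DMSO after 6 h of auxin in roots of Arabidopsis thaliana seedlings of the line pGATA23::shy2-2-GR. The comparison holds 6 of the 60 libraries of the series, 3 of each treatment, chosen by the line, treatment and time in their titles. Set beside it are libraries of this line at 0, 1, 2 and 4 h, those of 0 h being without IAA. Libraries of the series' other line, pGATA23::slr-1-GR, which carries slr-1, a stabilised IAA14, are used as well. The line expresses shy2-2, a stabilised form of the auxin repressor IAA3 (SHY2), joined to the hormone-binding domain of the glucocorticoid receptor (GR). The GATA23 promoter, which is active in xylem-pole pericycle cells that go on to found lateral roots, drives this fusion, and DEX lets the fusion protein enter the nucleus. Both groups carried the fusion gene, grew to 4 d after germination, were held for 22 h on 10 µM of the auxin transport inhibitor NPA and were then kept for 2 h on NPA with 10 µM DEX or with DMSO. They were next moved to 10 µM of the auxin IAA, with 10 µM DEX or with DMSO, and were harvested 6 h later. About 200 pooled segments of the lower root went into each sample. The series holds no DEX-treated plants without a fusion gene, so an effect of DEX on the plant itself and one of the fusion cannot be told apart. How many independent transgenic lines stood behind the label was not given in the sources used here.

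Auxin acts by binding TIR1/AFB receptor proteins, which then mark Aux/IAA repressors for destruction and so free auxin response factors (ARFs) to switch on their target genes. A stabilised Aux/IAA protein such as shy2-2 is not destroyed and keeps ARFs repressed while auxin is present. In the pericycle of Arabidopsis roots, auxin acting through ARF7 and ARF19 raises LBD genes, re-activates the cell cycle and leads to the first divisions of a lateral root. In the protocol used here NPA first keeps the pericycle at rest and IAA then starts these divisions along the whole root in near synchrony.

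The 6 libraries held 21083004 to 47774032 counts assigned to genes, and 21902 genes passed the filter on low counts. Levels are counts-per-million (CPM) values of the TMM-scaled library, in the order of replicates 1, 2 and 3. File names place the DEX libraries in 1 sequencing run and the DMSO libraries in another, so run and treatment cannot be told apart at 6 h. The same pair of runs also held the DEX and DMSO libraries of 0 h. Root markers were present and the shoot-identity genes YAB1 and YAB3 summed to at most 0.112 CPM. The 10 markers of photosynthetic tissue summed to 40.8 to 143 CPM under DEX and 110.4 to 448 CPM in DMSO, and their part in the results was not tested. None of the 6 libraries was among the 3 of the line that were high in such RNA, but those 3 entered the fit over the line. Without them 4803 genes were called at 6 h in place of 4919, with 4559 in both. In pooled tissue, fewer cells of a type and less RNA per cell cannot be told apart.

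After 6 h of IAA, genes of lateral root founding, DNA replication and mitosis were lower under DEX, and genes of ion release into the xylem were higher. Of the 21902 genes tested, 1868 (8.53%) were higher and 3051 (13.9%) lower under DEX, in edgeR's quasi-likelihood test with a Benjamini-Hochberg adjusted p under 0.05. Falls were the larger changes: 924 genes (4.22%) were lower by a log2 fold change of at least 1 in size, against 215 (0.982%) that were higher by as much. The median over all genes tested was 0.00 (log2). The CPM of the DEX and the DMSO libraries did not overlap for 7179 genes (32.8%). With only the 6 libraries in the fit, 466 genes were called higher and 1635 lower. Without DEX replicate 1 there were 1021 higher and 2204 lower calls, and without DEX replicate 3 there were 1112 and 2182.

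GATA23, a GATA factor that marks founder cells and whose promoter drives the fusion gene, had 0.212, 0.149 and 0.442 CPM under DEX and 13.6, 19.1 and 18.6 CPM in DMSO. All DEX libraries lay below 1 CPM and all DMSO libraries above 13 CPM. The log2 fold change was -5.96 ± 0.33, adjusted p = 1.2e-11 (± SE, n = 3 libraries per group compared, as throughout), a 62.3-fold lower level. Each SE is the size of the log2 value over the square root of the test's F value, with the spread estimated over all libraries of the fit. At 0 h, before IAA, GATA23 was already low in both treatments, at 0.372 ± 0.102 CPM (± SD) in DMSO and 0.0306 ± 0.0266 CPM under DEX, a log2 fold change of -3.73 ± 0.64 that was not called (adjusted p = 0.12). The change of its DEX effect from 0 h to 6 h did not pass the test (-2.23 ± 1.26, adjusted p = 0.29). IAA3 itself, whose reads may come from the native gene or from the matching part of the fusion, which cannot be told apart, had 91.1, 116 and 91.9 CPM under DEX and 93.4, 184 and 165 CPM in DMSO. DMSO replicate 1 lay within the range of the DEX libraries, and the difference did not pass the test (-0.57 ± 0.25, adjusted p = 0.10). IAA14, the Aux/IAA gene of the other line, had 70.5, 80.4 and 71.2 CPM under DEX and 95.8, 96.9 and 98.7 CPM in DMSO, with no overlap but no call (-0.39 ± 0.17, adjusted p = 0.099).

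**Figure D1:**
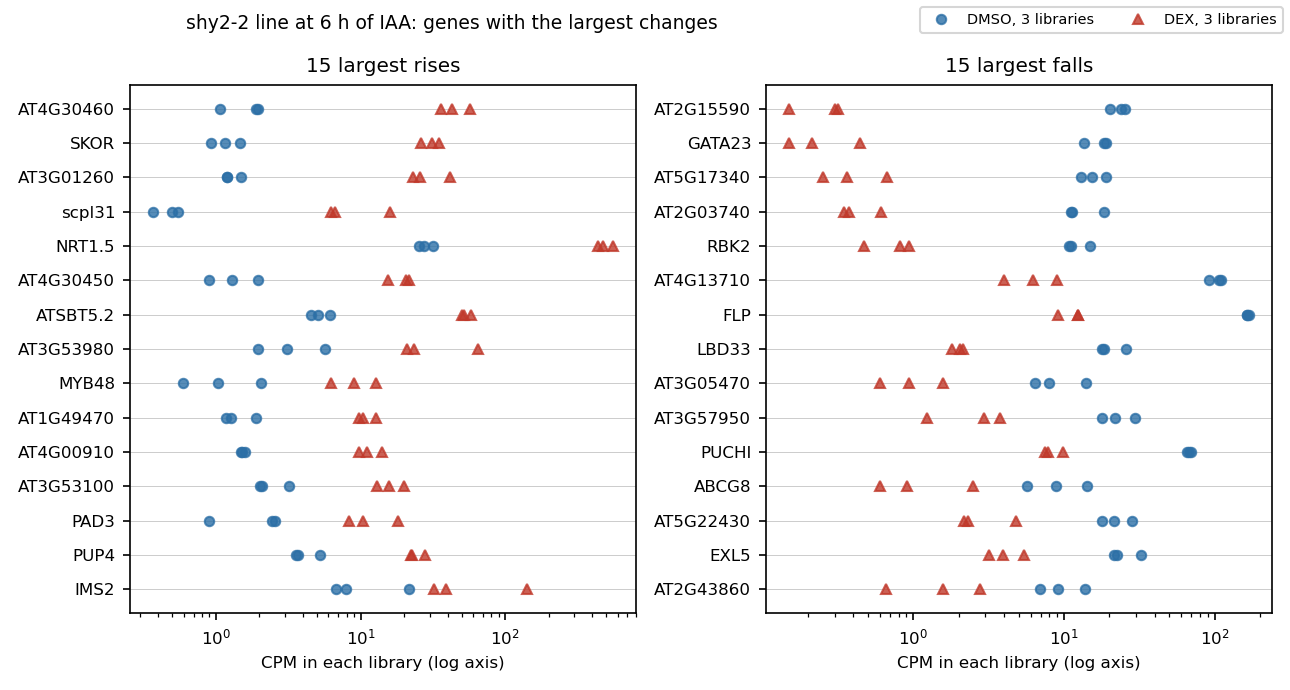
CPM in each of the 6 libraries (log axis) for the 15 largest rises (left) and the 15 largest falls (right) among genes that passed the test, a log2 fold change of 1, a mean of 5 CPM and a check that the groups do not overlap. Triangles are the 3 DEX libraries and circles the 3 DMSO libraries; AT4G30460 lies at 36.2 to 56.7 CPM under DEX and at 1.07 to 1.95 CPM in DMSO, and FLP at 9.11 to 12.5 and 164 to 169 CPM.

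Genes that found lateral roots were lower under DEX. Of 36 genes of lateral root founding and early primordia, 24 were lower and 1 was higher, with a median log2 fold change of -1.08, where 13.9% of all genes were lower. The list was chosen with earlier results of these data known. Members beyond the 6 with the smallest p, given below to show each role, were chosen after their values were seen.

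Among the LBD factors, which carry the ARF7 and ARF19 signal in founder cells, 6 of 7 were lower. LBD16 had 14.1, 13.9 and 15.3 CPM under DEX and 61, 59.7 and 57.2 CPM in DMSO. The DMSO level was 4.1-fold the DEX level, with little spread in either group (log2 fold change -2.04 ± 0.13, adjusted p = 2e-10). LBD33, which in Arabidopsis partners LBD18, had 2.15, 2.05 and 1.8 CPM under DEX and 17.9, 25.9 and 18.4 CPM in DMSO, with no overlap (-3.37 ± 0.40, adjusted p = 2.1e-06). LBD18 had 63.6, 79.9 and 74.7 CPM under DEX and 172, 150.4 and 161 CPM in DMSO (-1.15 ± 0.28, adjusted p = 0.0042), so that the DEX level was well under that of DMSO but far from 0. LBD29 had 98.9, 77.3 and 97.1 CPM under DEX and 139, 127 and 170.0 CPM in DMSO, did not overlap and was not called (-0.67 ± 0.27, adjusted p = 0.074). LBD19 passed narrowly (-0.86 ± 0.30, adjusted p = 0.042) and lost its call in 7 of 13 alternative settings. The difference thus ranged within the family from -3.37 for LBD33 to -0.67 for LBD29.

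FLP and MYB88 are a pair of related MYB factors that in Arabidopsis restrain divisions of stomatal precursors and also act in early lateral roots. FLP had 12.5, 9.11 and 12.3 CPM under DEX and 165, 169 and 164 CPM in DMSO, with little spread in either group (-3.88 ± 0.13, adjusted p = 1.6e-15). MYB88 had 21.4, 18.8 and 22.1 CPM under DEX and 53.6, 63.4 and 67.3 CPM in DMSO (-1.57 ± 0.13, adjusted p = 1.6e-08). Both fell, FLP more deeply.

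Factors that shape the young primordium fell as well: of 19, with FLP and MYB88 counted among them, 13 were lower and 1 was higher. The higher one was TMO5, a bHLH factor of vascular cell divisions (0.48 ± 0.13, adjusted p = 0.0083). PUCHI, an AP2/ERF factor that limits the spread of divisions in the primordium, had 9.79, 7.43 and 7.87 CPM under DEX and 65.8, 67.2 and 69.3 CPM in DMSO (-3.01 ± 0.38, adjusted p = 7.7e-06). PLT7, an AP2 factor of the PLETHORA family, had 0.455, 0.112 and 0.411 CPM under DEX and 6.05, 6.74 and 7.28 CPM in DMSO (-4.32 ± 0.34, adjusted p = 6.3e-09). Every DEX library of PLT7 lay below 0.5 CPM and every DMSO library above 6 CPM. Its relative PLT5 was also lower (-1.54 ± 0.30, adjusted p = 0.00054). SRS5 of the SHI family had 0.182, 0.336 and 0.158 CPM under DEX and 3.75, 8.32 and 3.05 CPM in DMSO (-4.49 ± 0.67, adjusted p = 3.4e-05), and LRP1 of the same family, named for its expression in lateral root primordia, was lower too (-1.07 ± 0.24, adjusted p = 0.0024). CRF3, a cytokinin response factor, had 20.9, 14.9 and 15.7 CPM under DEX and 69.6, 60.8 and 72.1 CPM in DMSO (-1.98 ± 0.16, adjusted p = 6.5e-09), and CRF2 differed in the same direction (-1.23 ± 0.15, adjusted p = 3.4e-06). WOX5, a homeobox gene of the root stem cell niche, was at 2.18, 2.95 and 2.65 CPM under DEX and 4.2, 7.2 and 5.08 CPM in DMSO (-1.09 ± 0.27, adjusted p = 0.0052).

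Of 9 peptides and receptors of lateral root spacing and emergence, 4 were lower. MAKR4, a membrane-associated regulator of founder cell spacing, had 131, 130.1 and 145 CPM under DEX and 244, 248 and 275 CPM in DMSO (-0.92 ± 0.17, adjusted p = 0.00047). IDA, the peptide that triggers cell separation over an emerging root, had 0.849, 1.42 and 0.348 CPM under DEX and 1.85, 7.54 and 3.89 CPM in DMSO, a wide spread in both groups with no overlap (-2.37 ± 0.69, adjusted p = 0.015); the call was lost in 4 of 13 alternative settings. GLV6, a secreted peptide that in Arabidopsis acts on founder cell division, was lower by a smaller step (-0.85 ± 0.16, adjusted p = 0.00046), as was CLE44 (-0.74 ± 0.21, adjusted p = 0.014), which lost its call without DEX replicate 2 or DMSO replicate 3.

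The stretch just before the annotated start of GATA23 and of PLT7, a founder cell and a primordium gene that fell deeply, is shown with its matches to the auxin response element in capitals. The searched forms of that element were TGTCTC and TGTCGG on either strand. The windows cover the 250 bases before each gene, chr5:9479174-9479423 on the plus strand and chr5:26185343-26185592 on the plus strand of the TAIR10.1 assembly from RefSeq, written 5′ to 3′ on the gene's strand. GATA23 holds 1 match, CCGACA, and PLT7 holds TGTCTC and, upstream of it, a match to the mitotic element described further below, CCGTTCG; the matches do not overlap.
GATA23: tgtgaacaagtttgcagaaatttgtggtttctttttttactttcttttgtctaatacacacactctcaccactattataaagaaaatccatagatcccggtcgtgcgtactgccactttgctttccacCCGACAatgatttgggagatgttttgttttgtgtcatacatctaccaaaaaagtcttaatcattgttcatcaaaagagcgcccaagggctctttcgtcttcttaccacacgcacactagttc
PLT7: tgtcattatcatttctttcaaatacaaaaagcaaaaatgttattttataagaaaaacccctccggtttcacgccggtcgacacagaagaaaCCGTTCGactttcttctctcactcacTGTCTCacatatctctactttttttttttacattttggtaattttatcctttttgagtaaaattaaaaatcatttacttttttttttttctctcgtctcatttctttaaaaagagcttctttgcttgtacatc
A match was found in such windows of 12 of the 36 lateral root genes (33.3%), of 14.4% of all genes lower at 6 h and of 14.9% of all protein-coding genes tested. A match of 6 letters is a description of the window and not a known binding site.

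Genes of DNA synthesis were lower under DEX in 13 of 22 cases and higher in none, with a median of -0.91. The share of lower calls over all genes was 13.9%. PCNA1, the sliding clamp of the replication fork, had 7.03, 10.1 and 5.56 CPM under DEX and 31.4, 34 and 25.1 CPM in DMSO (a 4-fold lower level, SE 0.28 on the log2 scale, adjusted p = 1.3e-05). RNR1, the large subunit of ribonucleotide reductase, which makes DNA building blocks, had 38.5, 51 and 30.2 CPM under DEX and 94.7, 134 and 115 CPM in DMSO (-1.52 ± 0.20, adjusted p = 5.9e-06). Its partner TSO2, the small subunit, was lower by a similar step (-1.65 ± 0.26, adjusted p = 6.8e-05). Among the helicase and loading genes, 8 of 14 were lower. MCM6, part of the ring that opens the helix, had 6.76, 11 and 4.39 CPM under DEX and 19.3, 32.2 and 22.9 CPM in DMSO (-1.76 ± 0.28, adjusted p = 7.8e-05), MCM7 of the same ring had a log2 fold change of -1.11 ± 0.16, adjusted p = 1.6e-05, and POLA3, the DNA primase subunit, one of -1.29 ± 0.22, adjusted p = 0.00019. In each of these genes the DEX and DMSO libraries did not overlap. Within both groups replicate 2 was the highest library of PCNA1, RNR1 and MCM6.

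E2F factors switch on replication genes at the start of DNA synthesis. Their sites were searched as TTTCCCGC, TTTGGCGC, TTTCGCGC and TTTGCCGC on either strand. MCM6 (chr5:18010668-18010917, minus strand) and POLA3 (chr5:16760596-16760845, plus strand) are shown as replication genes that fell and hold a match, in capitals.
MCM6: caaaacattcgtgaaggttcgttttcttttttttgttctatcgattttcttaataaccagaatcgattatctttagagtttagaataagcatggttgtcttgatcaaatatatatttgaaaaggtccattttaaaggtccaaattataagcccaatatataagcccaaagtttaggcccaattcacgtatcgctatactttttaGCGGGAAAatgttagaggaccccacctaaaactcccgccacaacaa
POLA3: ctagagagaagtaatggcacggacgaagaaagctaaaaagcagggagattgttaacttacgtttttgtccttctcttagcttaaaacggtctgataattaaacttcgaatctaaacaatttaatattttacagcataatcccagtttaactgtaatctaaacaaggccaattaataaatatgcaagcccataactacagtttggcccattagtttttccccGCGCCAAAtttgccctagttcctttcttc
Such a match was present in 8 of 22 windows of the replication list (36.4%), in 2.6% of those of all genes lower at 6 h and in 1.46% of all protein-coding genes tested.

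Mitotic genes fell together. Of 29, 23 were lower and 0 higher, the median was -1.19, and 12 of 13 A-type and B-type cyclins were lower. Over all genes 13.9% were lower. With only the 6 libraries in the fit, 12 were called. CDKB2;1, a plant-specific kinase of the entry into mitosis, had 11.4, 13.1 and 9.54 CPM under DEX and 36.8, 57.5 and 35.7 CPM in DMSO (-1.94 ± 0.20, adjusted p = 2.2e-07). The DMSO libraries were all above 35 CPM and the DEX libraries all below 14 CPM. CYCA2;2, an A-type cyclin, had 2.52, 2.99 and 1.71 CPM under DEX and 9.86, 10.8 and 8.32 CPM in DMSO (-2.01 ± 0.25, adjusted p = 4.4e-06). CYCA1;1 had 2, 4.63 and 2.65 CPM under DEX and 10.1, 19.9 and 9.11 CPM in DMSO (-2.09 ± 0.32, adjusted p = 5.5e-05), CYCB2;2 had 2.43, 3.96 and 2.75 CPM under DEX and 9.11, 16.3 and 6.57 CPM in DMSO (-1.82 ± 0.29, adjusted p = 6.6e-05), and CYCB1;4 had 6.06, 10.4 and 5.21 CPM under DEX and 21.8, 38.7 and 19.3 CPM in DMSO (-1.89 ± 0.30, adjusted p = 8.8e-05). In these 3 cyclins DMSO replicate 2 stood highest by far, yet the lowest DMSO library was above the highest DEX library. AUR1, a mitotic Aurora kinase, differed in the same direction (-1.37 ± 0.20, adjusted p = 2.6e-05).

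MYB3R factors act on mitotic genes through the MSA element, here searched as CNAACGG on either strand. CYCA1;1 (chr1:16777353-16777602, minus strand) and CYCB2;2 (chr4:16901346-16901595, plus strand) are shown because each fell and holds a pair of matches, in capitals.
CYCA1;1: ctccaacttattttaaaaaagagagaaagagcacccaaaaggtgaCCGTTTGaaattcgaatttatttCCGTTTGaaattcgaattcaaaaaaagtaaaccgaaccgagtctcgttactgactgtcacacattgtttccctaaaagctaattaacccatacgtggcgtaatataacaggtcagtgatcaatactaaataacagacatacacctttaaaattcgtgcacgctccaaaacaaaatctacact
CYCB2;2: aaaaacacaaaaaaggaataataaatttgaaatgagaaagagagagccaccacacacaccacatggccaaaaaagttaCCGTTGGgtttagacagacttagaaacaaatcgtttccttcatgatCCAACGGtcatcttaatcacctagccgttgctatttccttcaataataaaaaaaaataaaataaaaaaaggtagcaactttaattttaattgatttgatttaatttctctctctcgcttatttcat
At least 1 match lay in 10 of 29 windows of the mitosis list (34.5%), in 6.56% of those of genes lower at 6 h and in 4.89% of all protein-coding genes tested.

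Among genes that govern entry into the cycle, 9 of 25 were lower and 1, the D-type cyclin CYCD3;3, was higher (0.32 ± 0.10, adjusted p = 0.018). CYCD3;3 was not called without DEX replicate 1 or 3, and 3 genes were higher without DEX replicate 2. E2FA, the activating E2F factor, had 5.64, 6.39 and 3.76 CPM under DEX and 11.6, 13.6 and 11.9 CPM in DMSO (-1.24 ± 0.22, adjusted p = 0.00025). CYCD3;1, a D-type cyclin that responds to cytokinin, was at 14.2, 19.5 and 11.8 CPM under DEX and 35.4, 41 and 37.4 CPM in DMSO (-1.32 ± 0.31, adjusted p = 0.003). WEE1, a kinase that holds the cycle after DNA damage (-1.25 ± 0.28, adjusted p = 0.0024), and the CDK inhibitors KRP3 (-0.88 ± 0.22, adjusted p = 0.0051), KRP5 (-0.71 ± 0.18, adjusted p = 0.0071) and SIM (-0.51 ± 0.13, adjusted p = 0.0083) were lower too. Activators and inhibitors of the cycle thus both stood among the genes that fell. Of all genes tested 13.9% were lower and 8.53% higher. SIM lost its call without DMSO replicate 1, and SIM, KRP3 and WEE1 lost theirs with only the 6 libraries in the fit, when 3 genes of the list were lower.

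**Figure D2:**
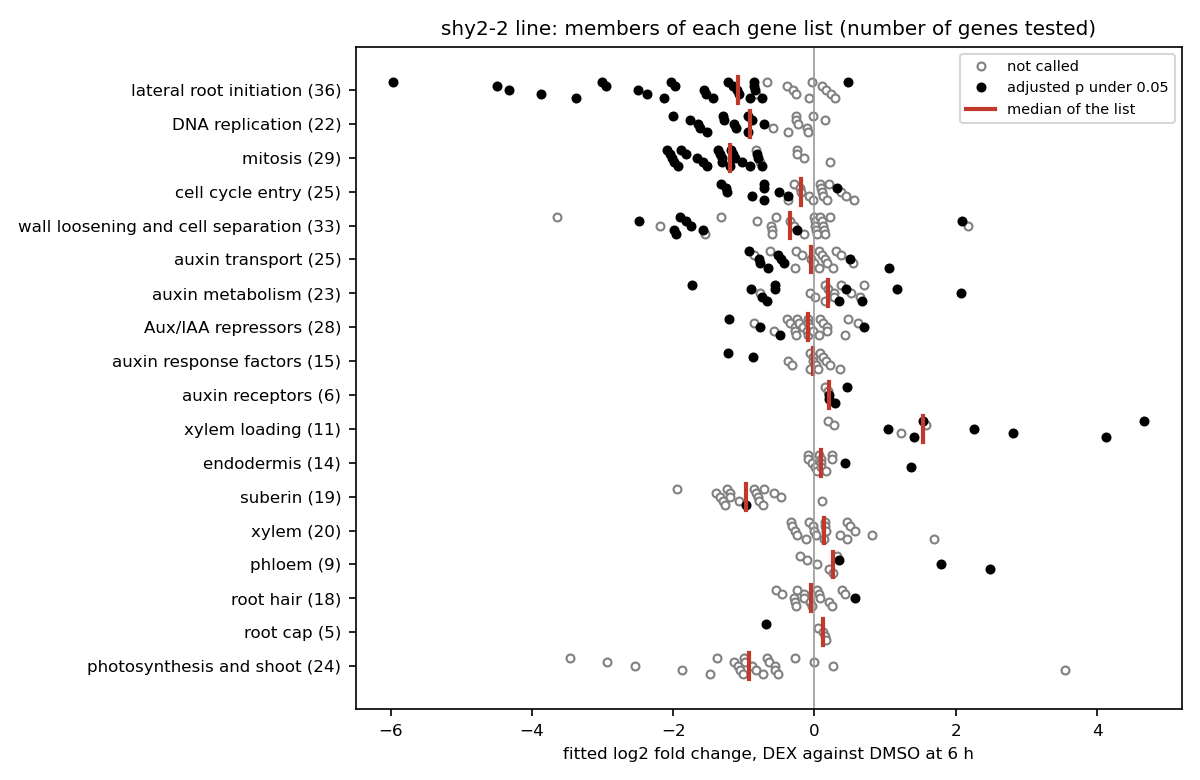
Fitted log2 fold change (DEX against DMSO at 6 h, x axis) of every tested member of 18 gene lists, with the number of genes tested after each name. Filled points passed the test at an adjusted p under 0.05, open points did not, and the bar is the median of the list; the medians of lateral root initiation (-1.08), DNA replication (-0.91) and mitosis (-1.19) lie below 0 and that of xylem loading (1.54) above it.

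Transporters that move ions from the root into the xylem were higher under DEX. Of 11 genes of xylem loading, 7 were higher and 0 lower, with a median of 1.54, where 8.53% of all genes were higher. NRT1.5, which releases nitrate into the xylem, had 436, 477 and 556 CPM under DEX and 27.3, 31.6 and 25.2 CPM in DMSO (4.13 ± 0.20, adjusted p = 1.9e-12), a 17.5-fold higher level. SKOR, the outward potassium channel of the stele, had 26, 31.1 and 34.8 CPM under DEX and 1.15, 1.47 and 0.931 CPM in DMSO (4.67 ± 0.24, adjusted p = 4.8e-12). No DMSO library of SKOR passed 1.5 CPM, and no DEX library lay under 26 CPM. PHO1, which exports phosphate to the xylem, had 253, 231 and 307 CPM under DEX and 64.4, 45.3 and 55.2 CPM in DMSO (2.26 ± 0.17, adjusted p = 2.1e-09). HMA2 and HMA4 are zinc pumps of xylem loading; HMA2 had 3.43, 7.88 and 4.46 CPM under DEX and 0.801, 0.713 and 0.734 CPM in DMSO (2.81 ± 0.32, adjusted p = 1.2e-06), and HMA4 had 229.5, 197 and 241 CPM under DEX and 109, 95.3 and 121 CPM in DMSO (1.04 ± 0.14, adjusted p = 1.1e-05). SLAH3, an anion channel, was at 60.5, 78.5 and 67.9 CPM under DEX and 23.2, 29 and 25.3 CPM in DMSO (1.41 ± 0.17, adjusted p = 2.1e-06). In all 6 of these genes the treatments did not overlap. UMAMIT18, an amino acid exporter, was the remaining called member (1.54 ± 0.41, adjusted p = 0.0081), a call lost without DEX replicate 2.

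The largest fitted rise among genes with a mean of 5 CPM was that of AT4G30460, annotated as a glycine-rich protein, with 36.2, 56.7 and 43 CPM under DEX and 1.95, 1.9 and 1.07 CPM in DMSO (4.80 ± 0.31, adjusted p = 2.2e-10). Its neighbour AT4G30450, also annotated as a glycine-rich protein and on the same strand, had 15.5, 21.7 and 20.7 CPM under DEX and 1.95, 1.3 and 0.903 CPM in DMSO (3.86 ± 0.26, adjusted p = 4.3e-10). The pair lies at chr4:14888931-14889855 and chr4:14886027-14886784 in the TAIR10.1 annotation. Other large rises were those of AT3G01260, annotated as a galactose mutarotase-like protein (4.57 ± 0.34, adjusted p = 2.4e-09), the serine carboxypeptidase-like gene scpl31 (4.36 ± 0.60, adjusted p = 1.6e-05), the subtilisin-like protease ATSBT5.2 (3.36 ± 0.14, adjusted p = 1.7e-13) and the purine permease PUP4 (2.56 ± 0.20, adjusted p = 4e-09). ATSBT5.2 had 58.1, 52 and 50.4 CPM under DEX and 6.11, 5.1 and 4.54 CPM in DMSO, with a narrow spread in both groups. AT4G00910, annotated in the aluminium-activated malate transporter family, was higher by 2.93 ± 0.21 and MYB48 by 3.01 ± 0.54 (log2, adjusted p = 1.1e-09 and 0.00028). PAD3, the cytochrome P450 of the last step of camalexin synthesis, had 10.4, 18.3 and 8.28 CPM under DEX and 0.901, 2.55 and 2.46 CPM in DMSO (2.59 ± 0.38, adjusted p = 3e-05). IMS2, annotated as a 2-isopropylmalate synthase, had 39.1, 142 and 32.1 CPM under DEX and 7.96, 21.6 and 6.74 CPM in DMSO (2.53 ± 0.88, adjusted p = 0.041). Replicate 2 was the highest library of IMS2 in both groups, and its call was lost in 5 of the 13 alternative settings, without DEX replicate 2 among them.

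The largest fitted fall among such genes was that of AT2G15590, annotated as a DUF1685 protein, with 0.303, 0.149 and 0.316 CPM under DEX and 25.4, 23.8 and 20.12 CPM in DMSO (-6.45 ± 0.35, adjusted p = 6.7e-12), an 87.6-fold lower level. AT5G17340, annotated as a putative membrane lipoprotein, had 0.364, 0.672 and 0.253 CPM under DEX and 12.9, 18.9 and 15.3 CPM in DMSO (-5.21 ± 0.42, adjusted p = 7.6e-09), and AT2G03740, a late embryogenesis abundant domain protein, had 0.606, 0.373 and 0.348 CPM under DEX and 11.2, 11.3 and 18.4 CPM in DMSO (-4.93 ± 0.46, adjusted p = 2.2e-06). All DEX libraries of these 3 genes were below 1 CPM. RBK2, a kinase that binds ROP GTPases, had 0.819, 0.934 and 0.474 CPM under DEX and 11.2, 14.8 and 10.8 CPM in DMSO (-4.05 ± 0.25, adjusted p = 7.4e-11). AT4G13710, a pectin lyase-like gene, had 6.25, 9 and 4.01 CPM under DEX and 92.4, 109.7 and 107 CPM in DMSO (-4.01 ± 0.44, adjusted p = 8.5e-07), and AT2G43860, also pectin lyase-like, was lower as well (-2.59 ± 0.62, adjusted p = 0.0058). AT3G05470, a formin of the actin cytoskeleton, had 0.94, 1.57 and 0.6 CPM under DEX and 6.46, 13.9 and 7.99 CPM in DMSO (-3.20 ± 0.41, adjusted p = 4.5e-06). AT3G57950 (-3.13 ± 0.42, adjusted p = 1.1e-05), AT5G22430, annotated in the pollen Ole e 1 allergen and extensin family (-2.86 ± 0.44, adjusted p = 4.9e-05), the transporter gene ABCG8 (-2.86 ± 0.68, adjusted p = 0.0037) and EXL5, a relative of EXORDIUM (-2.61 ± 0.25, adjusted p = 1.1e-07), complete the 15 largest falls together with the genes given above.

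Expansins, which loosen cell walls, were lower in 7 of 16 cases and higher in none, where 13.9% of all genes were lower and 8.53% higher. EXPA1, which is induced in the pericycle before the first division, had 96.6, 128 and 85.1 CPM under DEX and 368, 415 and 439.8 CPM in DMSO (-1.98 ± 0.27, adjusted p = 1.3e-05). The DMSO level was 3.95-fold the DEX level. EXPA17, a target of LBD18 in Arabidopsis, had 28.7, 40.9 and 29.3 CPM under DEX and 132, 117 and 98.3 CPM in DMSO (-1.81 ± 0.32, adjusted p = 0.00026). EXPA20 (-1.75 ± 0.16, adjusted p = 5.9e-08), EXPA14 (-1.58 ± 0.26, adjusted p = 0.00011) and EXPA15 (-1.90 ± 0.33, adjusted p = 0.00023) were lower by comparable steps, and the call of EXPA20 was lost with both strands counted together. Of 15 xyloglucan enzymes, XTH20 alone was called, and it was higher, with 19.5, 48.6 and 13.2 CPM under DEX and 3.85, 7.82 and 7.22 CPM in DMSO (2.08 ± 0.47, adjusted p = 0.0026), a call lost with only the 6 libraries in the fit.

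Most genes of auxin signalling were not called. Of 28 Aux/IAA repressor genes, 3 were lower and 1 higher, with a median of -0.10. Over all genes tested 13.9% were lower and 8.53% higher, so calls in this family were no more frequent. IAA19, a rapid auxin target, had 181, 282 and 186 CPM under DEX and 446, 521 and 539 CPM in DMSO (-1.22 ± 0.34, adjusted p = 0.011), with no overlap, but it was not called without DEX replicate 1 or without DEX replicate 3, when 1 repressor gene was lower. IAA26 was lower (-0.78 ± 0.17, adjusted p = 0.0019). IAA13 passed narrowly (-0.48 ± 0.17, adjusted p = 0.0498), had DMSO replicate 1 below all DEX libraries and lost its call in 9 of 13 settings. IAA28, which in Arabidopsis acts ahead of GATA23 in founder cell identity, was the gene that was higher, with 135, 124 and 155 CPM under DEX and 72.3, 80.4 and 101 CPM in DMSO (0.71 ± 0.12, adjusted p = 0.00024). IAA5, another rapid target, did not overlap between the treatments and was not called (-0.86 ± 0.36, adjusted p = 0.096).

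None of 5 activating ARFs was called by edgeR's quasi-likelihood test, 0 had an unadjusted p under 0.05 and DESeq2 called 0. ARF7 had 106, 96.4 and 102 CPM under DEX and 106, 95.8 and 107 CPM in DMSO (log2 fold change -0.02 ± 0.08) and ARF19 had 218, 179 and 202 CPM under DEX and 211, 201 and 214 CPM in DMSO (-0.06 ± 0.08), and in both genes the treatments overlapped. Of the ARFs held to be repressing, ARF3, a regulator of organ polarity, had 18.4, 22.6 and 17 CPM under DEX and 46.8, 43.6 and 44.6 CPM in DMSO (-1.22 ± 0.16, adjusted p = 9.5e-06), and its relative ARF4 was lower as well (-0.87 ± 0.12, adjusted p = 1.5e-05). The auxin receptor genes rose by small steps, with 4 of 6 called, where 8.53% of all genes were higher. AFB1 had 124, 106 and 109.9 CPM under DEX and 82.2, 86.8 and 79.2 CPM in DMSO (0.46 ± 0.10, adjusted p = 0.0019). The calls of AFB2, AFB3 and AFB4, at log2 fold changes of 0.29, 0.21 and 0.20, were lost in 2, 6 and 6 of 13 settings. Without DEX replicate 1, DEX replicate 3 or DMSO replicate 3 there were 2 receptor genes called, and with only the 6 libraries in the fit 1.

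Genes of auxin transport, which are carriers and the kinases that act on them, were lower under DEX in 7 of 25 cases and higher in 2. Of these calls the kinases held 1 lower and 1 higher. Among all genes 13.9% were lower and 8.53% higher, so the higher calls were no more frequent than over all genes. The efflux carrier gene PIN7 had 247, 278 and 188 CPM under DEX and 402, 472 and 488 CPM in DMSO (-0.93 ± 0.23, adjusted p = 0.0042), and PIN3 was lower by a smaller step (-0.51 ± 0.11, adjusted p = 0.0017). AUX1, the influx carrier, had 255, 253 and 225 CPM under DEX and 389, 417 and 457 CPM in DMSO (-0.79 ± 0.12, adjusted p = 3.4e-05), and LAX3, the influx carrier of cells over the primordium, was lower (-0.66 ± 0.18, adjusted p = 0.0093). ABCB21, an auxin transporter of the ABC family, was higher (1.05 ± 0.23, adjusted p = 0.0015). PIN3 and LAX3 lost their calls with only the 6 libraries in the fit, which left 3 genes of the list lower, and without DEX replicate 3 there were 4.

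GH3 enzymes join auxin to amino acids and so inactivate it, and 6 of 8 inactivation genes were lower. The shares over all genes were 13.9% lower and 8.53% higher. GH3.1 had 114, 142 and 107 CPM under DEX and 335, 402 and 464 CPM in DMSO (-1.73 ± 0.35, adjusted p = 0.00084). GH3.5 had 1209, 1148 and 1182 CPM under DEX and 2146, 1611 and 2151 CPM in DMSO (-0.74 ± 0.15, adjusted p = 0.0012). GH3.3, a widely used auxin marker, had 1700.0, 1486 and 1739 CPM under DEX and 2884, 1740.0 and 2656 CPM in DMSO (-0.56 ± 0.18, adjusted p = 0.029), with DMSO replicate 2 level with the highest DEX library; its call was lost in 6 of 13 settings. In contrast, 3 of 11 synthesis genes were higher, all of them YUCCA flavin monooxygenases. YUC6 had 7.43, 11.4 and 8.06 CPM under DEX and 3.2, 4.93 and 3.78 CPM in DMSO (1.16 ± 0.23, adjusted p = 0.00079), YUC8 was higher as well (0.67 ± 0.17, adjusted p = 0.0064, a call lost without DEX replicate 3), and YUC2 was higher at a level below 1 CPM in every library (2.07 ± 0.41, adjusted p = 0.00066). Leaving out DEX replicate 1 or DMSO replicate 1 left 3 lower calls in the metabolism list.

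Cytokinin genes were called in both directions, 6 higher and 3 lower of 29, where 8.53% of all genes were higher and 13.9% lower. The lower calls were thus no more frequent than over all genes. CKX7, a cytokinin oxidase that removes the hormone, had 2.67, 5.45 and 3.22 CPM under DEX and 19.8, 22.7 and 19.1 CPM in DMSO (-2.45 ± 0.47, adjusted p = 0.00058), and CKX6 differed as well (-0.94 ± 0.24, adjusted p = 0.0056, not called with both strands counted together). IPT5, a synthesis enzyme, was lower (-0.75 ± 0.13, adjusted p = 0.00023). CYP735A2, which makes trans-zeatin, the form of the hormone carried in the xylem, had 6.03, 12.8 and 3.73 CPM under DEX and 1.9, 2.79 and 2.23 CPM in DMSO (1.68 ± 0.43, adjusted p = 0.0068), and its relative CYP735A1 differed in the same direction at lower levels (1.89 ± 0.36, adjusted p = 0.00046). CYP735A2 lost its call without DEX replicate 2, and with only the 6 libraries in the fit 3 cytokinin genes were higher. The brassinosteroid synthesis gene BR6OX1 was higher (1.52 ± 0.29, adjusted p = 0.00047) and DWF4 lower (-0.54 ± 0.14, adjusted p = 0.0064), and neither was called with only the 6 libraries in the fit. Of 20 ethylene genes, EBF2, an F-box gene that turns the signal down, was called, at 0.43 ± 0.15, adjusted p = 0.038. It lost the call in 6 of 13 settings. With 8.53% of all genes higher, 1 call of 20 was no more than that share.

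In the endodermis list, MGP and NUC, zinc finger factors around the SHORT-ROOT pathway, were higher (1.37 ± 0.28, adjusted p = 0.0012 and 0.43 ± 0.09, adjusted p = 0.0015), and none of 7 Casparian strip genes was called by edgeR's quasi-likelihood test, 0 had an unadjusted p under 0.05 and DESeq2 called 0. NUC was not called with only the 6 libraries in the fit. The 7 endodermis markers summed to 238 to 348 CPM under DEX and 226 to 356 CPM in DMSO, which overlap. No gene of 20 in the xylem list was called by edgeR's quasi-likelihood test, with an unadjusted p under 0.05 in 2 and 0 called by DESeq2. In the phloem list, 3 of 9 were higher: SWEET12, a sugar exporter of phloem loading, had 46.1, 15.2 and 45.7 CPM under DEX and 10.2, 3.61 and 5.87 CPM in DMSO (2.48 ± 0.64, adjusted p = 0.0073), SWEET11 had a log2 fold change of 1.80 ± 0.54, adjusted p = 0.020, and SEOR1, a sieve element protein, one of 0.35 ± 0.12, adjusted p = 0.033. The share of higher calls over all genes was 8.53%. Without DEX replicate 1 or without DMSO replicate 3 only 1 phloem gene was higher, and SEOR1 lost its call in 5 of 13 settings. The 3 phloem markers SUC2, APL and SEOR1 summed to 39.9 to 43.7 CPM under DEX and 35.2 to 45.3 CPM in DMSO, which overlap. SMB, a NAC factor of the root cap, had 25.8, 21.2 and 26.4 CPM under DEX and 39, 37.8 and 41.6 CPM in DMSO (-0.69 ± 0.16, adjusted p = 0.0027). The 3 root cap markers, SMB, BRN1 and BRN2, summed to 48.4 to 52.0 CPM under DEX and 63.1 to 65.7 CPM in DMSO. SMB alone of these markers was called, so the lower sum does not show that they fell together. Their part in the results was not tested.

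Suberin genes had a median of -0.96, near that of the replication genes, yet 1 of 19 was called. That gene, KCS20, an enzyme of fatty acid elongation, had 67.3, 129.7 and 47.5 CPM under DEX and 139, 212 and 126 CPM in DMSO, which overlap (-0.96 ± 0.34, adjusted p = 0.044), and 6 of 13 settings lost the call. FACT, a feruloyl transferase of suberin synthesis, had a log2 fold change of -1.95 ± 0.98 and no call (adjusted p = 0.16). The photosynthesis and shoot list had a median of -0.93 with 0 of 24 called by edgeR's quasi-likelihood test; unadjusted p was under 0.05 in 1, and DESeq2 called 1. PSBO1, a subunit of photosystem II, had 31.9, 49.1 and 42.9 CPM under DEX and 111, 57.2 and 52.9 CPM in DMSO (-0.83 ± 0.52, adjusted p = 0.27), with DMSO replicate 1 highest. Both lists thus had medians near -1 with few or no calls, where 13.9% of all genes were lower.

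In edgeR's quasi-likelihood test 6 of 17 clock genes and 11 of 30 stress genes had an unadjusted p under 0.05. The share over all genes tested was 34.3%, so neither list stood out as a whole. In the stress list that p was under 0.05 in 5 of 7 heat genes. The other roles had 3 of 13 (touch and jasmonate) and 3 of 10 (detoxification). Among clock genes CCA1 was higher (0.83 ± 0.21, adjusted p = 0.0068) and CHE lower (-0.77 ± 0.22, adjusted p = 0.015), and both calls ended with only the 6 libraries in the fit. RVE8 was called too and lost the call in 4 of 13 settings. In the stress list HSFA2, a heat shock factor, had 2.88, 5.49 and 3.29 CPM under DEX and 7.81, 12 and 10.1 CPM in DMSO (-1.37 ± 0.38, adjusted p = 0.011) and HSP70 had 65, 164 and 49.8 CPM under DEX and 289, 322 and 241 CPM in DMSO (-1.62 ± 0.58, adjusted p = 0.049); HSFA2 lost its call without DEX replicate 1 or 3, and HSP70 in 10 of 13 settings. NDB4, a mitochondrial NADH dehydrogenase, had 0.0303, 0.0374 and 0 CPM under DEX and 0.701, 0.67 and 0.564 CPM in DMSO and passed the test (adjusted p = 0.00017), with 2 counts in all under DEX. AOX1A, the alternative oxidase, was higher by a small step (0.28 ± 0.09, adjusted p = 0.029), a call lost without DEX replicate 1 or DMSO replicate 1.

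The number of genes called grew with the time on IAA. At 0 h no gene was called by edgeR's quasi-likelihood test and 728 (3.32%) had an unadjusted p under 0.05. After 1 h 48 genes were called (0.219%), 22 of them higher and 26 lower. The 2 h libraries gave 130 calls (0.594%), 58 higher and 72 lower. By 4 h, 540 genes (2.47%) were higher and 1835 (8.38%) lower. Of the 3051 genes lower at 6 h, 1554 (50.9%) were lower at 4 h, which is 84.7% of the genes lower at that time. Of the 1868 genes higher at 6 h, 311 (16.6%) were higher at 4 h, 57.6% of the genes higher then. The 0, 4 and 6 h comparisons share no library. By the file names the DEX and DMSO libraries of 1 h came from the same sequencing run. At 0, 2, 4 and 6 h the treatments were in different runs.

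Levels over time are given as means for a few of these genes. FLP had a mean of 7.19 ± 0.551 CPM (± SD, n = 3) in DMSO at 0 h, 78.3 ± 10.3 CPM at 4 h and 166 ± 2.65 CPM at 6 h, while the DEX means were 7 ± 0.392, 8.79 ± 1.36 and 11.3 ± 1.89 CPM. LBD16 in DMSO was at 4.66 ± 0.574 CPM at 0 h and 45.3 ± 1.08 CPM at 1 h, and under DEX at 3.56 ± 0.439 and 23.3 ± 2.61 CPM. The 1 h level of LBD16 was thus above its 0 h level in both treatments, and less so under DEX (log2 fold change at 1 h -0.96 ± 0.13, adjusted p = 0.00018). The 1 h libraries came from another sequencing run than those of 0 h, so run and this step in time cannot be told apart. EXPA1 was at 98.7 ± 29 CPM in DMSO and 92.1 ± 15.3 CPM under DEX at 2 h, and at 408 ± 36.4 and 103 ± 22.1 CPM at 6 h. No call was made for EXPA1 at 2 h (log2 fold change -0.10 ± 0.26, adjusted p = 1.00), and one was at 4 h (-1.58 ± 0.27, adjusted p = 0.00028). CDKB2;1 was at 18.9 ± 2.09 CPM in DMSO and 12.8 ± 1.95 CPM under DEX at 4 h, before the 6 h values above. NRT1.5 started at 932 ± 268 CPM in DMSO and 926 ± 156 CPM under DEX at 0 h and ended at 28 ± 3.27 and 489.5 ± 61.1 CPM. SKOR was at 109 ± 13.8 CPM at 0 h and 1.18 ± 0.271 CPM at 6 h in DMSO, and at 124 ± 7.47 and 30.6 ± 4.4 CPM under DEX. In NRT1.5 and SKOR the 6 h level was below the 0 h level in both treatments, and further below it in DMSO.

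**Figure D3:**
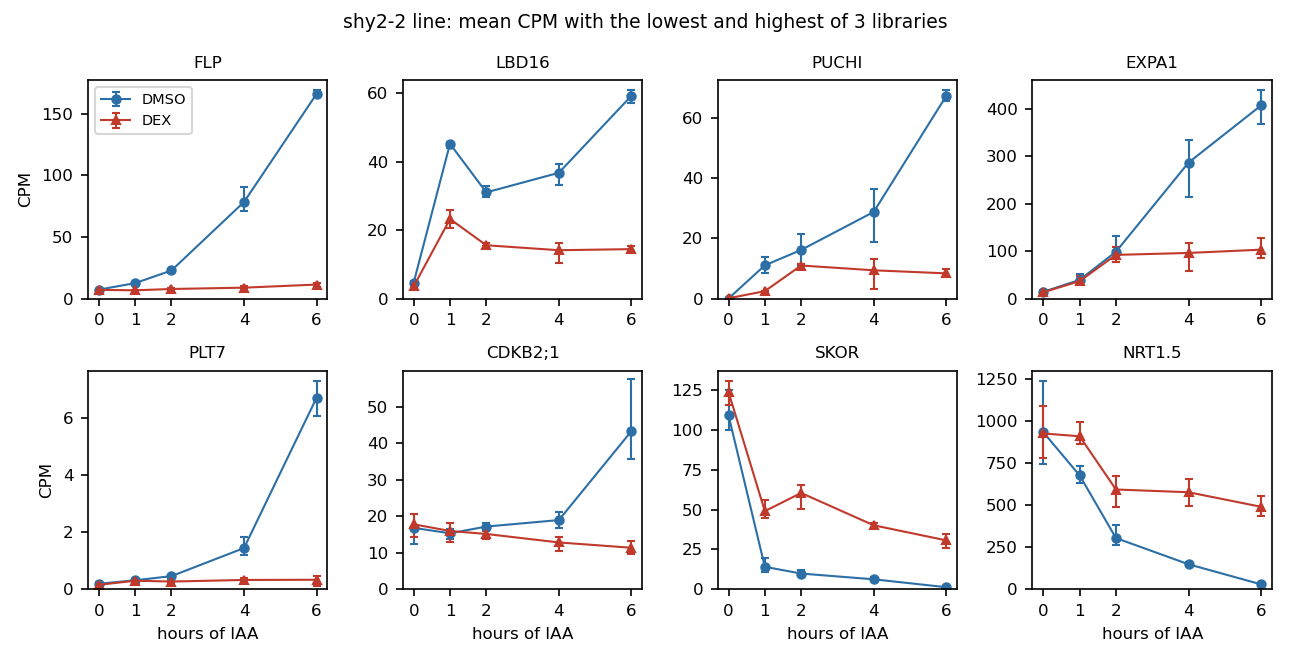
Mean CPM (y axis, linear, from 0) against hours of IAA (x axis) for 8 genes in the shy2-2 line, circles for DMSO and triangles for DEX, with bars from the lowest to the highest of 3 libraries. On this linear axis the treatments start close together at 0 h, where fold differences between low levels do not show. At 6 h FLP has means of 166 CPM in DMSO and 11.3 CPM under DEX, while SKOR and NRT1.5 are higher under DEX. The 1 h libraries came from a sequencing run that held none of the other times of this line.

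Replication genes were lower in 10 of 22 cases at 4 h and in 13 at 6 h. Mitotic genes were lower in 0 of 29 cases at 4 h, with a median of -0.24 and an unadjusted p under 0.05 in 3, and in 23 at 6 h. The xylem loading list had 6 of 11 higher at 4 h and 7 at 6 h, and the lateral root list 14 and 24 of 36 lower. Whether a list's difference at 6 h exceeds that at 4 h was tested gene by gene, and 0 of 36 lateral root genes passed, with an unadjusted p under 0.05 in 11. In the same test 1 of 29 mitotic genes passed toward lower (unadjusted p under 0.05 in 18). Of 22 replication genes 0 passed (unadjusted p under 0.05 in 4). Of 11 xylem loading genes 2 passed toward higher (unadjusted p under 0.05 in 5). Over all genes this test passed for 0.11%, and the unadjusted p was under 0.05 in 8.2%.

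The change of the DEX effect from 0 h to 6 h was tested because a difference of the same log2 size between the sequencing runs cancels in it. It passed for 2338 genes (10.7%), 665 toward higher (3.04%) and 1673 toward lower (7.64%). In this test 14 of 36 lateral root genes, 11 of 22 replication genes and 19 of 29 mitotic genes were lower, and 6 of 11 xylem loading genes higher. FLP changed by -3.84 ± 0.18 (adjusted p = 1.5e-12), SKOR by 4.49 ± 0.30 (adjusted p = 1.4e-09) and NRT1.5 by 4.14 ± 0.26 (adjusted p = 4.8e-10) on the log2 scale. Leaving out DEX 0 h replicate 2, 1 or 3 gave 1224, 1507 or 3530 genes. Leaving out DMSO 0 h replicate 3 gave 1255, leaving out DEX 6 h replicate 1 or 3 gave 1514 or 1452, and the count was 1151 without the 3 libraries high in photosynthesis RNA and 517 with only the libraries of the 4 groups compared in the fit.

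Between 4 h and 6 h the DEX effect changed for 24 genes (0.11%), 9 toward higher (0.0411%) and 15 toward lower (0.0685%). NRT1.5 gained 2.16 ± 0.26 (adjusted p = 0.00032), SKOR 1.97 ± 0.30 (adjusted p = 0.0055) and AT3G01260 3.03 ± 0.42 (adjusted p = 0.0018) (log2). AT5G11070, of unknown function, changed by -2.40 ± 0.34 (adjusted p = 0.0018) and the membrane protein gene NHL2 by -1.82 ± 0.32 (adjusted p = 0.019). In AT5G11070 the DEX effect was 0.26 at 4 h and -2.15 at 6 h. DESeq2 called 91 such genes. Removal of 1 library at a time left 6 (DMSO 4 h replicate 3), 7 (DEX 6 h replicate 1 or 3), 10 (DEX 4 h replicate 1) or 13 genes (DEX 4 h replicate 2 or DMSO 4 h replicate 1), and 11 were left without the 3 libraries high in photosynthesis RNA. With only the libraries of the 4 groups compared in the fit 1 gene passed, NRT1.5 (adjusted p = 0.0029), and the other genes named here lost their calls.

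The line pGATA23::slr-1-GR carries the same construct with slr-1, a stabilised IAA14, and went through the same treatments. In its own 6 h comparison 2699 genes (12.3%) were higher and 3698 (16.9%) lower under DEX. Of the genes lower in shy2-2, 2447 were lower in slr-1, which is 80.2% of the former and 66.2% of the latter, and of the genes higher in shy2-2, 1046 were higher in slr-1 (56.0% and 38.8%). The 2 comparisons share no library. By the file names they share no sequencing run either, and in slr-1 too the DEX and DMSO libraries came from different runs. Run and treatment thus cannot be told apart in slr-1, nor run and line in a difference between the lines. Mitotic genes were lower in 28 of 29 cases in slr-1 (median -1.82) and 23 in shy2-2 (median -1.19). Xylem loading genes had medians of 2.74 in slr-1 and 1.54 in shy2-2. The test of the difference between the lines, gene by gene, passed for 0 of 29 mitotic and 2 of 11 xylem loading genes.

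The difference between the lines, tested gene by gene over all 60 libraries, passed for 41 of 22268 genes (0.184%): 8 (0.0359%) with a more positive and 33 (0.148%) with a more negative value in shy2-2. PLT7 had a log2 fold change of -4.32 in shy2-2 and -6.42 in slr-1, a difference of 2.14 ± 0.45 (adjusted p = 0.019). Its mean in slr-1 was 19.9 ± 2.03 CPM in DMSO and 0.235 ± 0.0922 CPM under DEX. PHO1 was higher under DEX in both lines, by 2.26 and 3.54, with a difference of -1.24 ± 0.21 (adjusted p = 0.0033). AT3G05470, the formin, had values of -3.20 and -5.66 (difference 2.49 ± 0.56, adjusted p = 0.033), and the bHLH gene AT1G31050 had 1.72 and 2.98 (difference -1.22 ± 0.17, adjusted p = 0.00019). AT1G12320, annotated as an ankyrin repeat and KH domain protein, was not called in shy2-2 (-0.36 ± 0.22, adjusted p = 0.25) and was higher in slr-1 (1.31 ± 0.18, adjusted p = 4.7e-06), a difference of -1.63 ± 0.28 (adjusted p = 0.0033). Its shy2-2 value turned to 0.56 with both strands counted together and to 0.13 without DMSO replicate 1. The count of such genes was 15 without DMSO replicate 1 of shy2-2, 122 without DMSO replicate 2, 21 without DEX replicate 1, 18 without slr-1 DEX replicate 2, 27 without slr-1 DMSO replicate 2, and 86 by DESeq2. With only the libraries of the 4 groups compared in the fit it was 1, and none of the 5 genes named here kept its call.

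**Figure D4:**
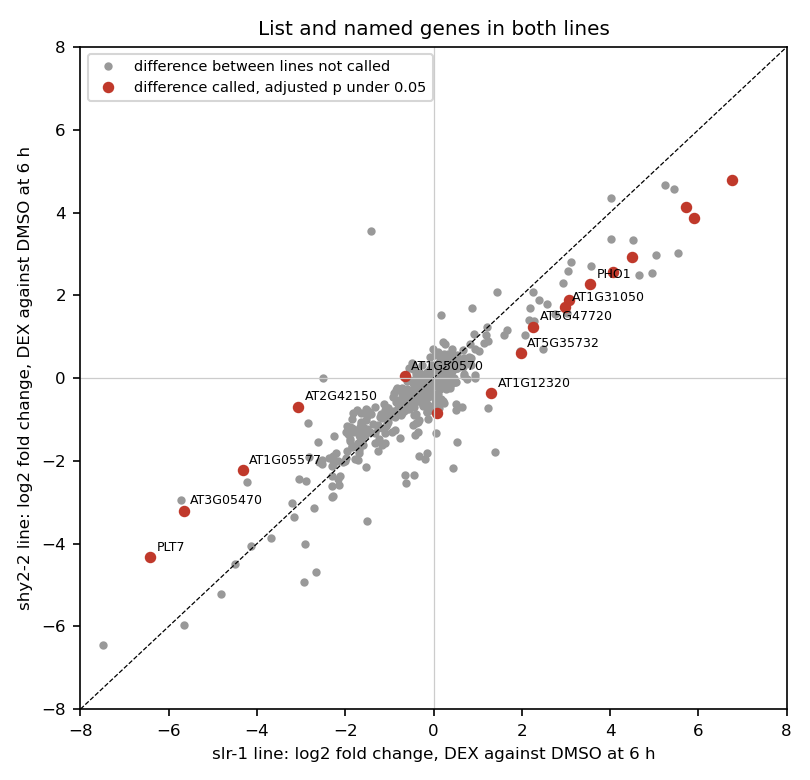
Fitted log2 fold change at 6 h, DEX against DMSO, in the slr-1 line (x axis) and the shy2-2 line (y axis), 1 point for each list gene or named gene tested in both. Filled red points passed the test of the difference between the lines, the named ones by its p; PLT7 lies at -6.42 and -4.32, and the dashed line marks equal values.

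How these genes respond to auxin when the fusion is kept out of the nucleus was read from libraries outside the comparison, the slr-1 line in DMSO at 6 h against 0 h of IAA. By their file names those 0 h and 6 h libraries came from different sequencing runs. Run and time on IAA thus cannot be told apart in this auxin response. Among all genes tested in shy2-2 and measured there, 29.2% rose and 25.5% fell after IAA. Of the genes lower under DEX in shy2-2, 2338 (77.2% of those tested in slr-1) rose and 85 (2.81%) fell with IAA in slr-1. Of those higher under DEX, 167 (8.94%) rose and 1015 of 1868 (54.3%) fell. With a log2 fold change of at least 1 in size these shares were 84.6% rising among 902 lower genes and 74.4% falling among 215 higher genes. FLP rose by 5.03 ± 0.18 (adjusted p = 2.1e-16) (log2) with IAA in those libraries and LBD16 by 3.70 ± 0.13 (adjusted p = 2.9e-16), and SKOR changed by -7.08 ± 0.26 (adjusted p = 4.6e-16) and NRT1.5 by -6.26 ± 0.30 (adjusted p = 4.5e-14). In that auxin response 54.5% of the 21864 genes tested were called, 29.2% rising and 25.3% falling. Of the lists, 30 of 36 lateral root genes and 24 of 29 mitotic genes rose, and 10 of 11 xylem loading genes fell.

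**Figure D5:**
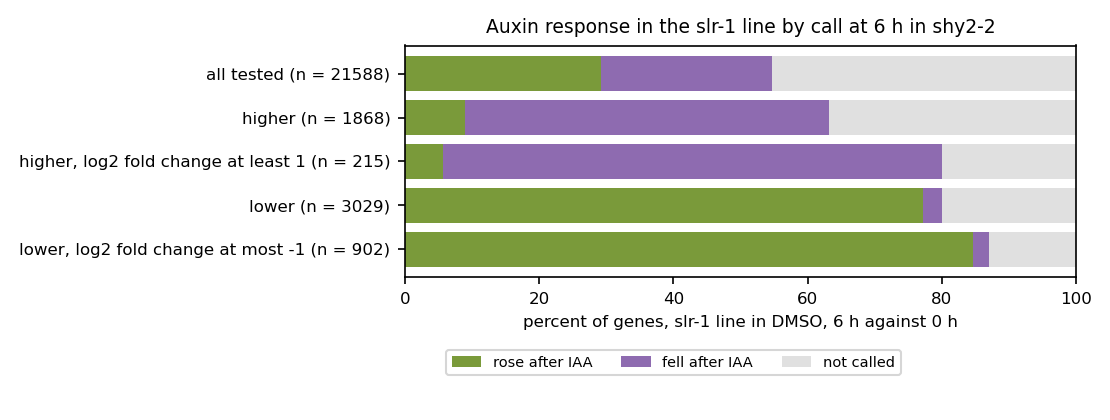
Percent of genes (x axis) that rose, fell or were not called between 0 h and 6 h of IAA in the slr-1 line in DMSO, for all genes tested and for genes higher or lower under DEX at 6 h in the shy2-2 line. Rising genes make up 77.2% of the lower group and 29.2% of all genes, and falling genes 54.3% of the higher group and 25.5% of all. The 0 h and 6 h libraries of slr-1 came from different sequencing runs.

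Some genes with a strong auxin response differed by a log2 fold change under 1 in size between the treatments. LBD29 rose by 7.36 ± 0.23 with IAA in slr-1 DMSO (log2), and its DEX difference in shy2-2 was -0.67 ± 0.27. GH3.3 rose by 5.85 ± 0.31 and differed by -0.56 ± 0.18, and ARF19 rose by 1.91 ± 0.11 and differed by -0.06 ± 0.08. For IAA5 the shy2-2 levels were 0.0969 ± 0.117 CPM in DMSO and 0.34 ± 0.307 CPM under DEX at 0 h and 35.5 ± 5.73 and 19.6 ± 4.09 CPM at 6 h. Suberin genes rose with IAA in 14 of 19 cases and root hair genes fell in 16 of 18, while 1 gene of each list was called between the treatments at 6 h.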

How the data were processed

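RNA-seq libraries from pooled root segments were compared as gene counts. The authors deposited counts per gene made with STAR 2.5.2b on TAIR10, per the submitters' processing notes, which also name DESeq2; the column of 1 strand was used, which held 93.61 to 95.51% of the stranded counts. Rows naming no gene held 6.49 to 11.89% of a library and were left out. The 6 libraries had 21083004 to 47774032 counts, and replicates differed by more than counting error. Nothing states that replicates came from separate plant batches, so p-values may measure technical spread only. Genes were filtered with filterByExpr, scaled by TMM and tested with edgeR 4.0.16 (robust quasi-likelihood fit over the 30 libraries of the line, R 4.3.3, limma 3.58.1), with Benjamini-Hochberg adjustment at 0.05; DESeq2 1.42.0, used as an alternative, and the other alternatives are described at the end. Named genes were the 15 largest rises and falls (log2 fold change of 1, mean of 5 CPM, no overlap), a fixed set of 9 auxin genes, the 6 smallest p of each list and 5 per direction for each difference. The comparison, lists and rule were chosen with earlier results of these data known. Gene names and coordinates come from RefSeq's TAIR10.1. A result for 1 gene is not reported here.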

Additional observations from a re-analysis of the deposited data

Results flagged for a closer look

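Differences between DEX effects, each tested directly by edgeR's quasi-likelihood test with Benjamini-Hochberg adjustment, were set apart for a closer look. The DEX effect of shy2-2 at 6 h differed from that at 0 h for 2338 genes. Toward higher values at 6 h, the log2 difference was 3.57 for ATSBT5.2, 4.14 for NRT1.5, 4.49 for SKOR, 2.06 for SBP3 and 4.52 for AT4G30460. Toward lower values it was -3.84 for FLP, -2.09 for AT3G04650, -2.62 for EXL3, -2.55 for AT5G05180 and -1.59 for AT1G12020. NRT1.5, SKOR and FLP are genes of the xylem loading and lateral root lists.

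The DEX effect at 6 h differed from that at 4 h for 24 genes. The log2 difference was 2.16 for NRT1.5, 3.03 for AT3G01260, 1.33 for ATSBT5.2, 1.97 for SKOR and 1.08 for AT5G43180. It was -2.40 for AT5G11070, -1.82 for NHL2, -1.94 for AT5G62770, -0.96 for AT1G04030 and -0.97 for AT3G15530. The gains in NRT1.5 and SKOR fall in the xylem loading list.

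The DEX effect at 6 h differed between the shy2-2 and slr-1 lines for 41 genes. The value of shy2-2 less that of slr-1 was 2.43 for AT2G42150, 2.14 for PLT7, 2.14 for AT1G05577, 2.49 for AT3G05470 and 0.75 for AT1G50570. It was -1.22 for AT1G31050, -1.33 for AT5G35732, -0.98 for AT5G47720, -1.24 for PHO1 and -1.63 for AT1G12320. PLT7 and PHO1 moved the same way in both lines, by more in slr-1.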

How the results depend on the processing

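Of 133 named genes called at 6 h, 93 kept the call in all 13 alternative settings. With only the groups of the contrast in the fit, the count of 4919 called genes became 2101 (466 higher, 1635 lower; 2051 were among the 4919), that of the change since 0 h 517, since 4 h 1 and between the lines 1. Without the libraries high in photosynthesis RNA the change since 0 h passed for 1151 genes and that since 4 h for 11. DESeq2 gave 91 for the change since 4 h and 86 between the lines. Leaving out each replicate gave 3225 to 5187 calls at 6 h, 1021 to 1991 higher, 2182 to 3196 lower, 1224 to 3530 since 0 h, 6 to 25 since 4 h, 15 to 122 between the lines and 10482 to 11358 in the auxin response. AT1G12320 turned from -0.36 to 0.56 with both strands counted together. The causes of these shifts were not tested, beyond the fewer samples that several settings hold. RLE scaling (5014), no filter (4478), both strands (4770) and DESeq2 (5454) kept the 6 h count within 1.5 times. Same-numbered replicates deviated with correlations of 0.032, 0.561 and 0.245, not every library matched its own number best, and the replicate block gave 5241 calls, 4836 of them among the 4919. With 3 libraries per treatment and 21083004 to 47774032 counts, genes near or below 1 CPM rest on few reads.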
